A study of Mus musculus with 8 samples.

Results

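The genes of glucose uptake, glycolysis and the pentose phosphate pathway were followed in Pax5-deficient mouse B cell precursors in which a human Pax5 gene could be switched on with doxycycline. They are 35 genes listed by name: glucose transporters, hexokinases, the enzymes of upper and lower glycolysis, lactate dehydrogenases, lactate transporters and pyruvate dehydrogenase kinases, pentose phosphate enzymes, and the regulators Txnip, Hif1a and Nr3c1. Of the 35, 34 had a probe under their name or an older one (Pkm is Pkm2 in the files), and all 34 were measured well enough to be tested, among 20041 features in all. The remaining member, Pgls, was matched only through an accession on a probe with another gene's name, and is given apart.

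The cells were bone marrow-derived Pax5-/- pro/pre-B cells kept on gamma-irradiated OP9 stroma, feeder cells that support early B cells, with the cytokine IL-7. Clone 4, a single clone, carried the reverse tetracycline transactivator rtTA and huPax5, the human Pax5 transgene, from retroviral vectors selected with histidinol and puromycin. It received doxycycline at 10 ng/ml (the low dose), 300 ng/ml (the middle dose) or 1000 ng/ml (the high dose), and without doxycycline (0 ng/ml) it was the control of every comparison. Pax5sz2 cells carried rtTA but no huPax5 and were labelled as treated with doxycycline, with no dose stated. All groups are therefore Pax5-/- and carry rtTA. Pax5sz2 and clone 4 are different cells, so transgene, doxycycline and differences between the cells cannot be told apart in that comparison. Each of the 4 comparisons put 1 RNA against control RNA on 2 dual-colour Agilent arrays with the dyes swapped, array 1 having the named RNA in Cy5 and array 2 in Cy3. Nothing in the labels gives replicate cultures, so every ± is the SD of 2 technical arrays, and single comparisons have no p-value. A log2 ratio of 1 is 2-fold, and a positive ratio means higher in the named RNA. A gene was counted as past the size when both arrays showed at least 2-fold in the same direction.

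Glucose enters the cell through facilitative transporters of the SLC2 family and is trapped by hexokinases as glucose-6-phosphate. Glycolysis then turns it into pyruvate, which lactate dehydrogenase reduces to lactate for export by monocarboxylate transporters, or which enters mitochondria through pyruvate dehydrogenase unless the PDK kinases switch that enzyme off. The pentose phosphate pathway branches off at glucose-6-phosphate and yields NADPH and ribose. In B cell precursors, Pax5 and Ikaros are known to limit glucose uptake and energy supply, and TXNIP, which inhibits glucose uptake, and the glucocorticoid receptor encoded by Nr3c1 are known as parts of that control.

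The 4 comparisons were not alike in their arrays. The share of spots called well above background, per RNA and array, was 59.5% to 75.5% for the low and middle doses and Pax5sz2, and 40.4% to 45.1% for the high dose, but the call used a multiplier of 13 for the former and 2.6 for the latter, so these shares are not on 1 scale. The high-dose arrays were slides marked as rehybridised, from an earlier scan with older settings, so that the high dose and its batch cannot be told apart. Array 1 of the middle dose stood apart from array 2 by more than 1 on the log2 scale for Hk1, Pfkm, Tpi1 and Eno1, as for 6.83% of all features. The high-dose arrays have no settled direction, since over all tested probes they correlated with the middle-dose arrays at r = -0.362 (named RNA in Cy5) and -0.474 (Cy3). Blnk, an adaptor gene that Pax5 activates, had mean ratios of -0.90 ± 0.13, 2.62 ± 0.12, -4.20 ± 0.27 and -3.41 ± 0.03 in the order low, middle and high dose and Pax5sz2. Fcer1g, an Fc receptor chain gene that Pax5 represses, had -0.57 ± 0.20, -3.40 ± 0.18, 4.46 ± 0.046 and -1.09 ± 0.044. The RNA levels bear on the direction. Of 504 features at least 2-fold different on the high-dose pair with levels in all channels, 502 (99.6%) had the channel labelled as the high dose nearer than the channel labelled control to the mean control level of the other pairs. That share was 9.68% for the low dose, 7.74% for the middle dose and 0.586% for Pax5sz2. Among the sugar metabolism genes, it held at the high dose for 6 of the 6 that differed by at least 1.5-fold on both arrays. It did not hold for some that differed by less, Hk2 and Ldha among them. The labelled direction is kept, and values with the sign turned are given beside it. The brightest Pax5 probe, a mouse probe that need not read the human transgene and so does not check the labels, was at 2.66 ± 0.20, 2.36 ± 0.055, 0.11 ± 0.20 (neither RNA well above background) and 3.02 ± 0.19.

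With doxycycline at the low and middle doses, Hk2, Slc2a1, Ldha and Ldhb were higher than in the control on every array and Slc2a6 and Txnip were lower, while most enzymes of glycolysis and the pentose phosphate pathway lay near the control. By the brightest probes, Pax5sz2, without huPax5, lay on the same side of the control on both arrays for all 6 of these genes. A second Ldha probe was at 0 and -0.09 there. The control had the same label in all comparisons, which are not independent if it was 1 RNA, but the labels do not say so. Pax5sz2 was also higher for Aldoc. Of all 34 genes, few were past the size. At the low dose 1 was higher (Hk2) and 0 lower, 2.94% of the genes, against 0.604% higher, 1.27% lower and 1.88% in either direction among all features. For the middle dose 1 was higher (Hk2) and 2 lower (Slc2a6 and Txnip), 8.82%, against 1.31%, 2.36% and 3.67%. On the high-dose arrays as labelled 2 were higher (Slc2a6 and Txnip) and 1 lower (Pfkp), 8.82%, against 1.93%, 0.634% and 2.56%, and with the sign turned 1 was higher and 2 lower. In Pax5sz2 1 was higher (Aldoc) and 1 lower (Slc2a6), 5.88%, against 2.34%, 2.82% and 5.16%. These shares rest on 1 to 3 genes each. Median centring in place of loess left 0, 0, 1 and 1 genes, because 1 of the 2 arrays then fell short of 2-fold, while the means stayed near or above those with loess (Hk2 1.51 at the low dose and 1.69 at the middle dose, Slc2a6 -1.42 at the middle dose and -1.15 in Pax5sz2). Array 1 alone, without array 2, gave 3, 9, 3 and 5 genes. The share of all features was not counted with median centring or array 1 alone, so those counts have no background beside them. At 1.5-fold on both arrays the counts were 3, 6, 6 and 8 genes (8.82%, 17.6%, 17.6% and 23.5%), against 8.36%, 12.5%, 6.81% and 14% of all features.

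The median ratio of the 34 genes was -0.04 at the low dose, 0.05 at the middle dose, -0.08 at the high dose as labelled (0.08 if turned) and -0.02 in Pax5sz2, against 0.01, 0, 0 and 0.03 for all features. Within 0.5 of 0 lay 27, 23, 26 and 22 of the genes (79.4%, 67.6%, 76.5% and 64.7%), against 84.4%, 74.9%, 87.9% and 78.1% of all features. Above 0 on both arrays were 11, 16, 12 and 12 genes, and below 0 on both 13, 10, 13 and 15. The genes thus lay on both sides of the control in each comparison.

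**Figure D1:**
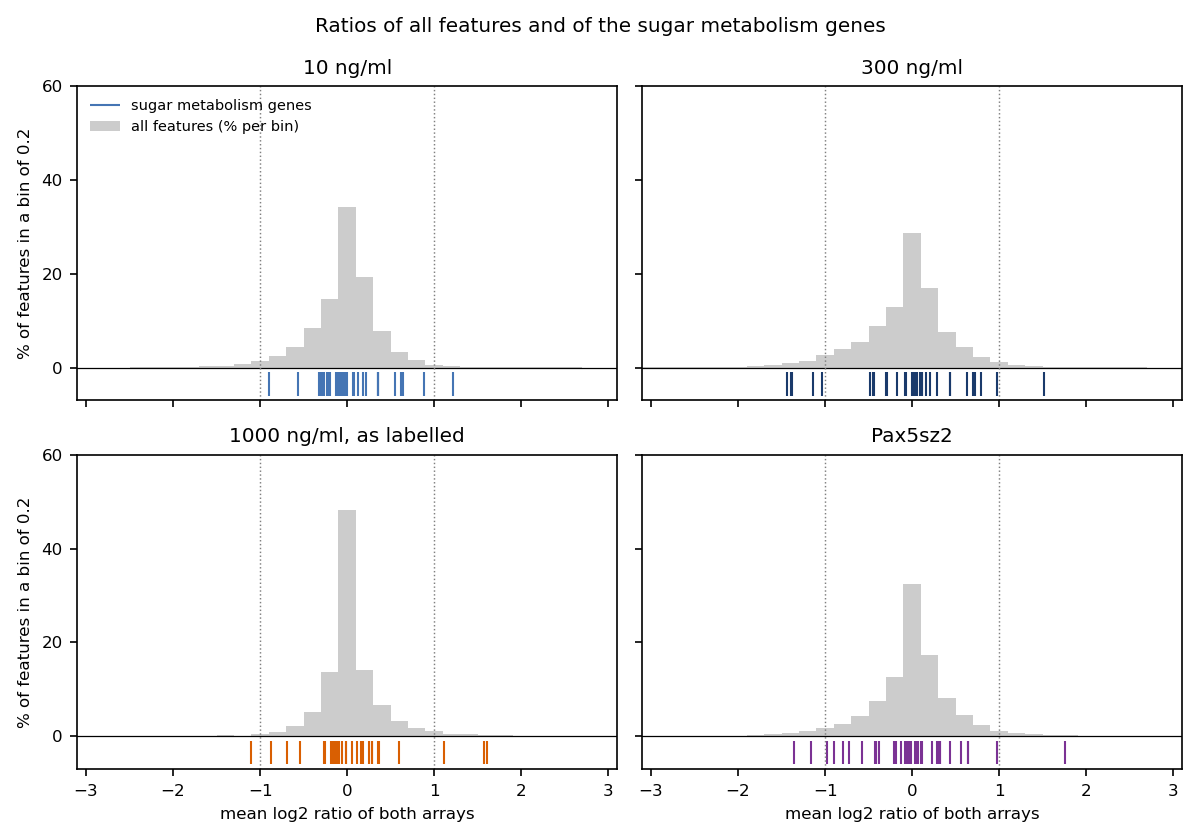
Percentage of all tested features in bins of 0.2 (bars, vertical axis) by mean log2 ratio (horizontal axis, dotted lines at 2-fold), with the 34 sugar metabolism genes as ticks below. Features beyond the plotted range (0, 8, 29 and 30 in the 4 comparisons) are not drawn. The ticks centre where the bars do. The outermost are Slc2a6 and Hk2 at 10 ng/ml, Tpi1 and Hk2 at 300 ng/ml (Tpi1 with a wide gap between its arrays), Pfkp and Slc2a6 at 1000 ng/ml, and Slc2a6 and Aldoc in Pax5sz2.

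The glucose transporter Slc2a6 (GLUT6) was lower with doxycycline at the lower doses and in Pax5sz2, while Slc2a1 (GLUT1) was higher and Slc2a3 (GLUT3) stayed within 1 of the control. For Slc2a6 the log2 ratios on array 1 and array 2 were -0.85 and -0.96 at the low dose, -1.20 and -1.57 at the middle dose, and -1.46 and -1.27 in Pax5sz2. On the arrays labelled high dose they were 1.63 and 1.60, or the same sizes below 0 with the sign turned. The gene was thus past the size at the middle dose, at the high dose and in Pax5sz2, 2.62-fold lower, 3.06-fold higher as labelled and 2.57-fold lower. At the high dose the log2 ratio was 2.64 with the scanner's processed signals in place of 1.61. Its mean log2 level in the control RNA was 9.03, 9.05 and 9.10 on the low-dose, middle-dose and Pax5sz2 pairs but 7.56 on the high-dose pair, where the control was well above background on 1 of 2 arrays and the named RNA was at 9.17. The sole probe lies at chr2:26843637-26843696 of the mm8 build given in the files.

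Slc2a1, the main basal transporter of lymphoid cells, had ratios of 0.69 and 0.54 at the low dose, 0.81 and 0.60 at the middle dose, 0.02 and -0.36 at the high dose, and 0.68 and 0.17 in Pax5sz2. It was above the control on all arrays of the low-dose and middle-dose pairs, by 1.53-fold and 1.63-fold, and never 2-fold. For Slc2a3, a high-affinity transporter, the mean ratios were 0.22 ± 0.26, 0.05 ± 0.16, 0.35 ± 0.30 and 0.64 ± 0.24 at the low, middle and high doses and in Pax5sz2. Its other 2 probes were not well above background and were not tested.

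Among the hexokinases, which carry out the first step of glucose use, Hk2 was higher and Hk1 lower or near the control, except on the high-dose arrays as labelled. Hk2 had ratios of 1.15 and 1.29 at the low dose, 1.54 and 1.47 at the middle dose, and 1.08 and 0.87 in Pax5sz2, against -0.24 and -0.26 at the high dose. It was past the size at the low dose (2.32-fold) and at the middle dose (2.84-fold) and just short of it in Pax5sz2 (1.97-fold), which carries no huPax5. The control level of Hk2 lay between 11.76 and 11.94 on all 4 pairs, and on the high-dose pair the named RNA was at 11.51 against 11.76 in the control. The single Hk2 probe lies at chr6:82690720-82690779 (mm8).

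Hk1, the constitutive isoform, was at -0.30 and -0.27 at the low dose, -2.54 and -0.22 at the middle dose, 0.93 and 1.29 at the high dose, and -0.99 and -0.82 in Pax5sz2. The value at the middle dose rests on array 1. Of its 5 other probes, the 3 brighter ones were at -0.59, -0.97 and -0.59 at the middle dose and at -0.85, -1.02 and -0.70 in Pax5sz2, and the 2 dimmest were near 0 throughout. Hk3, typical of myeloid cells, had mean ratios between -0.04 and 0.10, and at the high dose neither RNA was well above background.

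**Figure D2:**
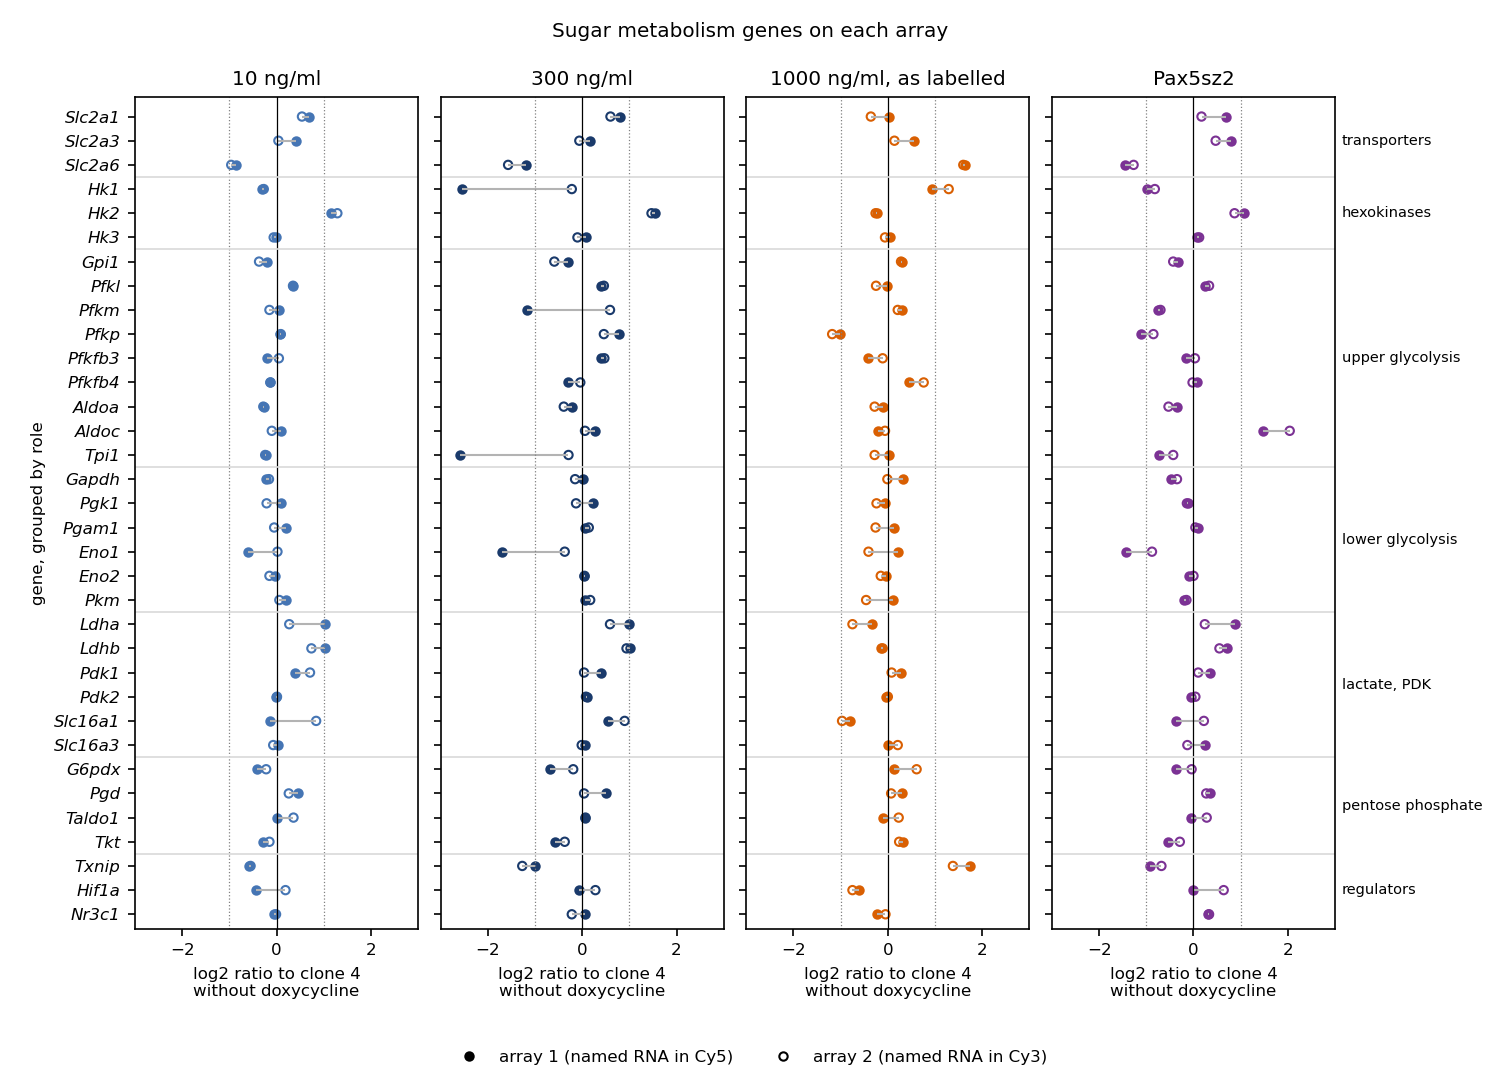
Log2 ratio of each of the 34 tested genes (vertical axis, grouped by role) to clone 4 without doxycycline on array 1 (filled) and array 2 (open) of each comparison, with dotted lines at 2-fold. Hk2 lies beyond the line on both arrays at 10 and 300 ng/ml, Slc2a6 changes side between the 1000 ng/ml pair as labelled and the other pairs, and Hk1, Pfkm, Tpi1 and Eno1 show the wide gap between the 300 ng/ml arrays.

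Upper glycolysis runs from glucose-6-phosphate to the triose phosphates, and 2 of its 9 members passed the size, each in 1 comparison. These were Pfkp at the high dose, where 2.56% of all features passed, and Aldoc in Pax5sz2, where 5.16% did. Aldoc, an aldolase isoform best known from brain, was at 0.10 and -0.10 at the low dose, 0.27 and 0.06 at the middle dose, and 1.47 and 2.04 in Pax5sz2 (3.38-fold). At the high dose neither RNA was well above background. In Pax5sz2 the control RNA was well above background on 1 of 2 arrays, and a second Aldoc probe gave 0.79 and 1.34, higher on both arrays but not past the size. The brighter probe lies at chr11:78142657-78142716 (mm8). Pfkp, the platelet isoform of phosphofructokinase, the main control point of glycolysis, was at 0.08 and 0.09 at the low dose, 0.79 and 0.46 at the middle dose, -1.02 and -1.18 at the high dose, and -1.11 and -0.85 in Pax5sz2. It was past the size at the high dose alone (2.15-fold lower as labelled, higher if turned). Another Pfkp probe, nearly as bright, was at -0.46 and -0.38 at the low dose, opposite in sign to the brightest. That probe was at 0.02 and 0.03 at the middle dose and at -0.64 at the high dose. In Pax5sz2 it was at -2.0 and -1.76, so it passed the size there and the brightest one did not. The dimmest Pfkp probe was near 0 at the high dose and in Pax5sz2.

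The other phosphofructokinases did not pass the size. Pfkl, the liver isoform, had mean ratios of 0.35 ± 0.0046, 0.43 ± 0.039, -0.13 ± 0.16 and 0.28 ± 0.063 at the low, middle and high doses and in Pax5sz2. Pfkm, the muscle isoform, was at -1.16 and 0.59 on the middle-dose arrays, which gives it no direction there, and at -0.76 and -0.70 in Pax5sz2. The enzymes that set the phosphofructokinase activator fructose-2,6-bisphosphate, Pfkfb3 and Pfkfb4, had means between -0.27 and 0.60. Gpi1, the isomerase after hexokinase, was at -0.29 ± 0.12, -0.45 ± 0.20, 0.28 ± 0.01 and -0.38 ± 0.08, and Aldoa, the main aldolase, at -0.27 ± 0.018, -0.30 ± 0.12, -0.19 ± 0.13 and -0.43 ± 0.13. A second, dimmer Gpi1 probe had means of 0.06, 0.06, 0.04 and 0.02 in the same order, opposite in sign except at the high dose. A second Aldoa probe was at -1.86 and -0.42 at the middle dose, with array 1 the lower. Tpi1, which interconverts the triose phosphates, was at -2.58 and -0.29 at the middle dose and at -0.73 and -0.43 in Pax5sz2.

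Lower glycolysis, which yields ATP and pyruvate, had 0 of 6 members past the size in any comparison. Of all features, 1.88%, 3.67%, 2.56% and 5.16% passed it at the low, middle and high doses and in Pax5sz2. A count of 0 among so few genes thus says little. The mean ratios of Pgk1, Pgam1 and Pkm, which encode phosphoglycerate kinase, phosphoglycerate mutase and pyruvate kinase, all lay between -0.18 and 0.13. A second Pkm probe was at -0.71 and -0.62 in Pax5sz2, further below the control than the brightest one (-0.21 and -0.15). Eno1, the ubiquitous enolase, was at -1.70 and -0.37 at the middle dose and -1.44 and -0.88 in Pax5sz2 (2.23-fold lower, with 1 of 2 arrays past 2-fold). Eno2, the neuronal enolase, lay between -0.09 and 0.04, with neither RNA well above background at the high dose. The single Gapdh probe, made for a cDNA clone, gave -0.20 ± 0.05, -0.07 ± 0.11, 0.16 ± 0.24 and -0.41 ± 0.092. The control RNA was well above background on 1 of 2 high-dose arrays for this probe, and which transcripts it reads was not analysed here.

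Of the genes that handle pyruvate and lactate, both lactate dehydrogenases were above the control on all arrays at the low and middle doses. Ldhb, the isoform of the heart, was at 1.03 and 0.74 at the low dose, 1.02 and 0.94 at the middle dose, -0.14 and -0.11 at the high dose, and 0.72 and 0.55 in Pax5sz2. It was thus 1.84-fold and 1.97-fold higher at the lower doses, short of 2-fold on array 2 of each pair. Ldha, the isoform that favours lactate, was at 1.02 and 0.27, 1.00 and 0.59, -0.33 and -0.75, and 0.89 and 0.24 in the same order. A second Ldha probe gave 0.76 and 0.62 at the low dose and 0.90 and 0.93 at the middle dose, but 0.00 and -0.09 in Pax5sz2, so the Ldha probes differ there.

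Slc16a1, the lactate transporter MCT1, was at -0.14 and 0.84 at the low dose, 0.54 and 0.90 at the middle dose, -0.80 and -0.97 at the high dose and -0.37 and 0.22 in Pax5sz2. Its 2 other probes followed it at the middle dose (0.89 and 0.95) and at the high dose (-0.94 and -0.89). In Pax5sz2 they were at 0.12 and 0.55, above 0, where the mean of the brightest was -0.08. Slc16a3, the exporter MCT4 of highly glycolytic cells, stayed between -0.02 and 0.11. Pdk1 had means from 0.17 to 0.55, but its other probe was at -0.38 at the low dose and -0.51 at the middle dose, the opposite sign. Pdk2 stayed between -0.01 and 0.09.

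The promoters of Hk2, Slc2a1, Ldha, Slc2a6 and Txnip are shown because these genes are among those described here as above or below the control. Ldhb, also above it, is not shown. The genes shown were picked after values were seen, so their promoters do not stand for all genes of either direction. The 250 bases before the RefSeq start of each are shown (GRCm38.p6, 5′ to 3′ on the gene's strand). Capitals mark ACGTG, a form of the core of the hypoxia response element, on either strand. Other forms of the core were not searched. ACGTG is part of the E-box CACGTG, which MYC, USF and HIF factors can bind, and which is then in capitals as a whole.
Hk2, chr6:82774455-82774704, minus strand: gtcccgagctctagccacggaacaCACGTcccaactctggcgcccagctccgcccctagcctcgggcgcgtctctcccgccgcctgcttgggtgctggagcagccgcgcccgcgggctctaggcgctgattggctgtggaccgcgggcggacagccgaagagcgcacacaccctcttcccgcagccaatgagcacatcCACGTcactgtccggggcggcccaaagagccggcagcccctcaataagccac
Slc2a1, chr4:119108495-119108744, plus strand: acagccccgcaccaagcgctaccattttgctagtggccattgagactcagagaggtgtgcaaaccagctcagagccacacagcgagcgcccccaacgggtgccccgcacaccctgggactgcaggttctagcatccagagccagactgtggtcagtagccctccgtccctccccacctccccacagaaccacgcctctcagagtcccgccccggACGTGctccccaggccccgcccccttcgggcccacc
Ldha, chr7:46845554-46845803, plus strand: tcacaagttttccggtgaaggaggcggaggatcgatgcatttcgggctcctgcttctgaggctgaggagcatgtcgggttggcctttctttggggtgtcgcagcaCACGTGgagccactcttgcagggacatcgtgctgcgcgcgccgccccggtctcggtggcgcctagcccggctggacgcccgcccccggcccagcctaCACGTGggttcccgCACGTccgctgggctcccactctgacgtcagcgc
Slc2a6, chr2:27027999-27028248, minus strand: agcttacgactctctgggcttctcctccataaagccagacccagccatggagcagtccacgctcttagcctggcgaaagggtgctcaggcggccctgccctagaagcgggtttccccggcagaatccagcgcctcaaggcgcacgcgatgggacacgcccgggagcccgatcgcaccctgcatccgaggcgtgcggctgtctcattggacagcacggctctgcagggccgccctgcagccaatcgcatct
Txnip, chr3:96557707-96557956, plus strand: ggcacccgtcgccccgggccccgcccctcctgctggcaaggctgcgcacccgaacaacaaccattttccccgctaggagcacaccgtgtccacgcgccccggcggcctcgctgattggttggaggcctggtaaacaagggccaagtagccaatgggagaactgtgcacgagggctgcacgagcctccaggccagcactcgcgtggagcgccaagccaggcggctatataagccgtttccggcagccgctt
ACGTG occurs 2 times before Hk2, 1 time before Slc2a1 and 5 times before this start of Ldha, where 2 E-boxes each count on both strands. It is not in the windows of Slc2a6, Txnip and Ldhb, nor in that of a second Ldha start. Those windows may hold other forms of the core. Of 48 such windows of 33 listed genes, some of which overlap, 35.4% hold ACGTG and 12.5% hold CACGTG, against 16.6% and 6.02% of all 32851 windows in the table. Of the 10 genes with a window that were above the control on all 4 arrays of the low-dose and middle-dose pairs, 4 hold ACGTG in any window (Slc2a1, Hk2, Pkm and Ldha) and Pfkl, Pfkp, Ldhb, Pdk1, Pgd and Taldo1 do not. Of the 9 that were below it on all 4, 1 does (Aldoa, in 2 of 3 windows). Listed genes in neither group hold it too: Hk3, Pfkm, Pfkfb3, Pgk1, Pgam1, Pdk2, Slc16a1, Slc16a3 and Hif1a. The shares above are per window and not per gene. The share of all genes with ACGTG in any window was not counted, so the counts by direction have no background beside them. A link between ACGTG and the direction was not tested. Directions here are those of the brightest probe, and other probes of Pfkp and Pdk1 lay below the control at the low dose. These are matches of letters only, and no binding was measured here.

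**Figure D3:**
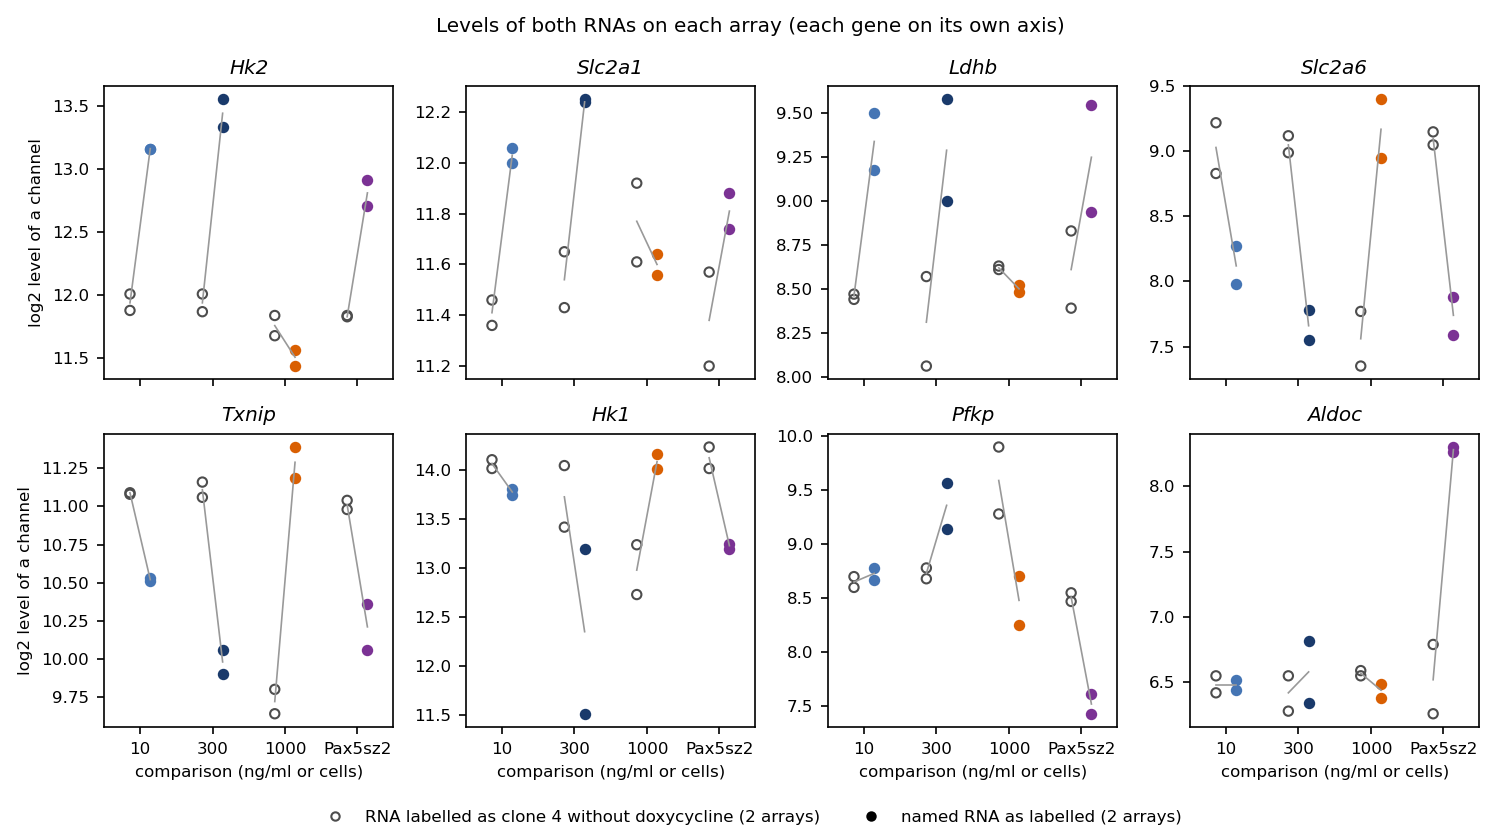
Log2 level of each RNA on each array (vertical axis, a scale for each gene) for 8 genes in the 4 comparisons, with open points for the RNA labelled as control, filled points for the named RNA and a line between their means. For Slc2a6, Txnip, Hk1 and Pfkp the filled points of the 1000 ng/ml pair lie at the level of the open points of the other pairs, whereas the points of that pair lie close together for Hk2 (11.51 and 11.76) and Ldhb (8.50 and 8.62).

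The pentose phosphate genes were close to the control, with mean ratios between -0.48 and 0.37. Of 4 tested members, 0 were past the size in any comparison. Of all features, 1.88%, 3.67%, 2.56% and 5.16% passed it at the low, middle and high doses and in Pax5sz2. A count of 0 among so few genes thus says little. G6pdx, which encodes the entry enzyme, was at -0.42 and -0.22 at the low dose, -0.68 and -0.19 at the middle dose, 0.13 and 0.61 at the high dose, and -0.38 and -0.04 in Pax5sz2. Tkt, the transketolase of the non-oxidative branch, was at -0.22 ± 0.098, -0.48 ± 0.15, 0.28 ± 0.058 and -0.42 ± 0.18 in that order. Both lay below the control on all arrays but those labelled high dose. Pgd, the second NADPH-yielding enzyme, had means from 0.18 to 0.35, with a second probe at -0.09 in Pax5sz2, and Taldo1, the transaldolase, from 0.06 to 0.18. The probe that an accession assigns to Pgls, the lactonase between G6pdx and Pgd, is named Bcnp1 in the files. It gave -0.37 and 0.03 at the low dose, -0.74 and -0.74 at the middle dose, 0.63 and 0.04 at the high dose, and -0.41 and -0.14 in Pax5sz2.

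Txnip encodes an inhibitor of glucose uptake that is itself induced by glucose. Its ratios were -0.58 and -0.55 at the low dose, -1.01 and -1.27 at the middle dose, 1.75 and 1.38 at the high dose, and -0.92 and -0.68 in Pax5sz2. It was past the size at the middle dose (2.20-fold lower) and at the high dose (2.96-fold higher as labelled, lower if turned). A second probe gave -0.93 and -1.11 at the middle dose and 0.68 and 0.69 at the high dose, the same sign but short of the size. The control level of Txnip was 11.01 to 11.11 on the other 3 pairs and 9.72 on the high-dose pair, where the named RNA was at 11.29. The brighter probe lies at chr3:96646629-96646688 (mm8).

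Hif1a, the oxygen-regulated subunit of the hypoxia factor, was at -0.44 and 0.19 at the low dose, -0.07 and 0.28 at the middle dose, -0.62 and -0.75 at the high dose, and -0.02 and 0.64 in Pax5sz2, so only the high-dose arrays lay clearly on 1 side. Nr3c1 had means of -0.03 ± 0.028, -0.08 ± 0.20, -0.14 ± 0.12 and 0.32 ± 0.015. Its 3 other probes were between -0.12 and 0.02 in Pax5sz2, so the higher value there was that of the brightest probe alone.

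**Figure D4:**
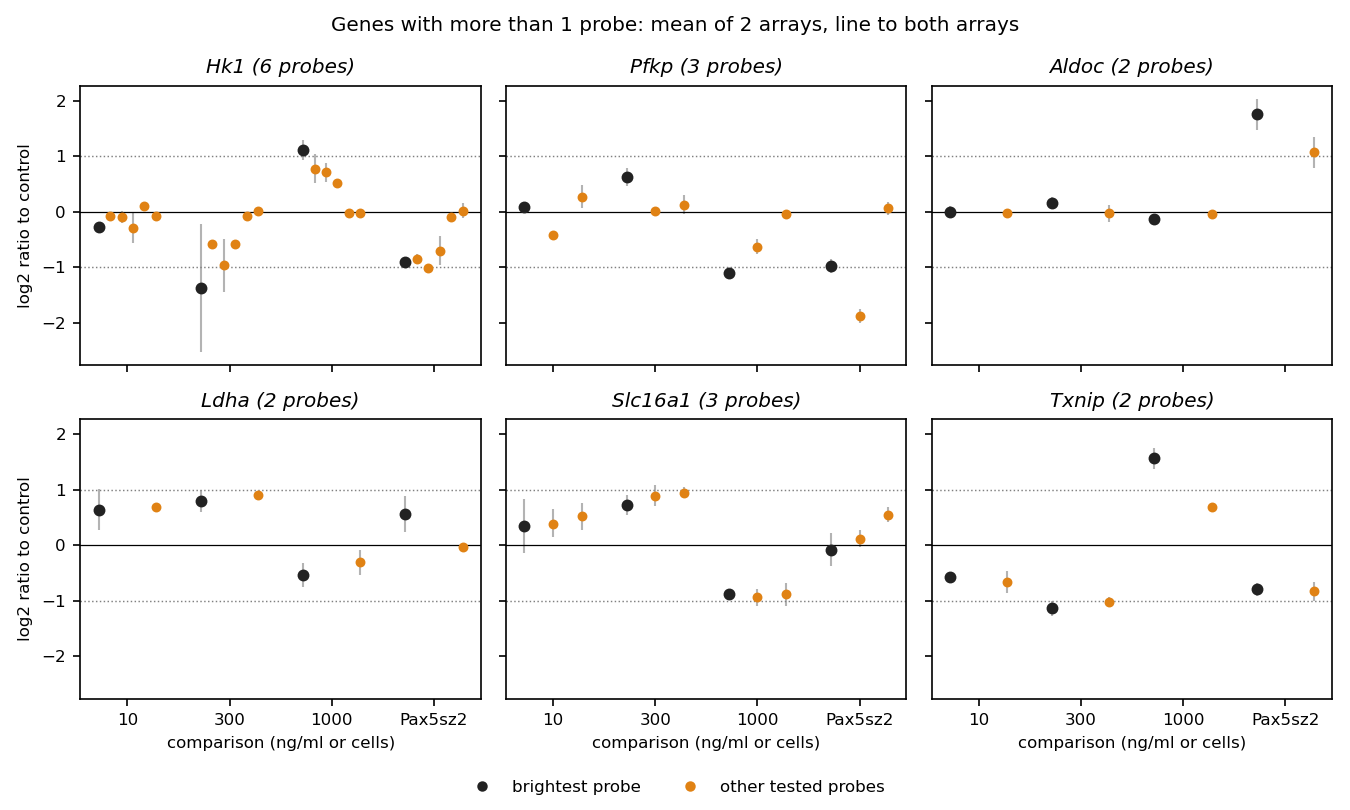
Mean log2 ratio of every tested probe (vertical axis) in the 4 comparisons for 6 genes, with the brightest probe in black, other probes in orange from brighter to dimmer, lines reaching both arrays and dotted lines at 2-fold. The probes share a sign in 3 comparisons for Slc16a1 and in all 4 for Txnip, the 2 dimmest Hk1 probes stay near 0, and the Ldha and Pfkp probes differ in Pax5sz2.

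A test was made across all features with limma, two-sided, in which each comparison was 1 sample, the 3 doses shared a mean effect and Pax5sz2 was assumed to vary as the doses do. It leaves out the spread of the control RNA, which has the same label in all comparisons. With all 4 samples as labelled, 0 of 34 genes passed for the mean doxycycline effect, for Pax5sz2 or for the difference between them (Benjamini-Hochberg adjusted p under 0.05), as did 0 of 19784 features (0%). The numbers at an unadjusted p under 0.05 were 2, 5 and 2 genes, and 1177, 2095 and 1440 of all features. With the high-dose sign turned, the doxycycline effect gave 0 genes (smallest adjusted p in limma 0.119, for Slc2a6, Ldha and G6pdx, with 12 genes and 24.5% of all features at an unadjusted p under 0.05). The difference gave 0 (0.0607% of all features, with 4 genes and 10.9% of all features unadjusted), and Pax5sz2 gave 1, Aldoc, at 1.76 ± 0.11 (SE) with an adjusted p of 0.0457, where 0.414% of all features passed. Pax5sz2 is 1 RNA with no spread of its own, so that its SE and p are borrowed from the differences between doses of clone 4.

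Without the high-dose pair, which leaves the later batch, 5 genes passed limma's test of the mean doxycycline effect, 14.7% against 14.4% of all features, a share near the background. Of these 4 were higher and 1 lower, against 5.67% and 8.72% of all features. Ldhb rose by 0.93 ± 0.066 (SE, adjusted p = 0.0377), Hk2 by 1.36 ± 0.10 (adjusted p = 0.0377), Slc2a1 by 0.66 ± 0.065 (adjusted p = 0.0384) and Ldha by 0.72 ± 0.074 (adjusted p = 0.0395). Slc2a6 fell by 1.15 ± 0.15 (adjusted p = 0.0450), while Txnip, at -0.85 ± 0.18, did not pass (adjusted p = 0.0708). All 4 arrays showed the direction for each of these genes. The spread in this fit comes from the difference between the low-dose and middle-dose samples alone. In the same fit 1 gene passed for Pax5sz2, Aldoc (1.76 ± 0.11, adjusted p = 0.0468, against 3.56% of all features), on the same borrowed spread, and 16 genes and 29% of all features had an unadjusted p under 0.05. For doxycycline minus Pax5sz2 0 passed (0% of all features), with 5 genes and 19% of all features unadjusted. For Hk2 that difference was 0.38 ± 0.18 (adjusted p in limma 0.393) and for Slc2a6 0.22 ± 0.26 (adjusted p = 0.750), so a difference from cells without the transgene was not shown for either, nor was its absence. In another fit, with the middle dose taken from array 2 alone as well, a choice made after seeing the data, 11 genes passed for doxycycline (29.9% of all features), 9 for Pax5sz2 (17.4%) and 1 for their difference, Aldoc (adjusted p = 0.0251, 4.02%).

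Further genes of sugar metabolism were read from lists of related genes. Counts past the size in these and the marker lists stand beside the shares of all features given above for each comparison. Of 21 tested genes of the wider pathway, such as further transporters and tissue isoforms, 1 passed the size: Eno3, the muscle enolase, at -1.65 ± 0.20 at the low dose, -2.48 ± 0.28 at the middle dose, 2.12 ± 0.39 at the high dose as labelled and 0.11 ± 0.40 in Pax5sz2. Of 11 genes that bring pyruvate into mitochondria, Pdk4, the kinase induced in fasting, was the 1 past the size, at 1.42 ± 0.031, 1.60 ± 0.031 and 1.28 ± 0.17 at the low dose, the middle dose and in Pax5sz2, and at 0.22 ± 0.035 at the high dose. Of 6 glucose-sensing genes, Arrdc4, a relative of Txnip that shares its inducers, was at 1.13 ± 0.13 and 1.70 ± 0.08 at the low and middle doses, where Txnip was below 0, and at 0.79 ± 0.28 in Pax5sz2. At the high dose neither RNA was well above background for it.

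Hypoxia targets, many of which share HIF control with glycolytic genes, had medians of 0.10, -0.05, -0.08 and -0.09 over 16 genes. Ndrg1 was at -3.26 and -1.48 at the middle dose, and Ndrg1 (1.28 ± 0.014) and Egln3 (1.57 ± 0.12) were higher and Bnip3 (-1.49 ± 0.14) lower at the high dose as labelled. No other hypoxia target passed the size. Of 6 glucocorticoid targets, which respond to the receptor encoded by Nr3c1, 0 passed the size in any comparison, with medians of 0.49, 0.50, -0.05 and -0.55. Of 11 energy-sensing and insulin pathway genes, Irs1, the insulin receptor substrate, was past the size at the middle dose (1.18 ± 0.19) and in Pax5sz2 (1.51 ± 0.24), and Pik3ip1, an inhibitor of PI3 kinase, in Pax5sz2 (-1.07 ± 0.079).

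Markers of other cells moved on the same arrays. Of 20 stromal markers, which the feeder cells express, 3 were past the size and higher at the low dose, 7 at the middle dose, 0 at the high dose and 4 in Pax5sz2, with 0, 0, 0 and 1 lower. Their ratios ranged from -0.37 to 1.45, -0.80 to 1.91, -0.56 to 0.37 and -1.07 to 1.78, with medians of 0.66, 0.86, -0.07 and 0.15. The log2 of their summed level was 15.70 in the named RNA against 15.05 in the control at the low dose, 15.57 against 14.73 at the middle dose, 15.14 against 15.07 at the high dose and 15.52 against 15.14 in Pax5sz2. Among them Cxcl12 was at 1.45 ± 0.013, 1.75 ± 0.28, -0.11 ± 0.031 and 1.78 ± 0.12, and Vcam1 at 1.20 ± 0.0024, 1.86 ± 0.20, -0.51 ± 0.11 and 1.10 ± 0.05. Acta2 was the 1 past the size and lower in Pax5sz2, where the median of all 20 was 0.15. The summed level of the markers exceeded the control by more in the low-dose, middle-dose and Pax5sz2 pairs than at the high dose. The ratios of Hk2, Slc2a1, Ldha, Ldhb and Pdk4 were also higher in the low-dose, middle-dose and Pax5sz2 pairs. The part of these markers in those values was not tested. In bulk RNA, more cells of a type and more RNA per cell cannot be told apart.

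Of 15 tested myeloid markers, 1 was higher and 1 lower at the low dose, 5 were lower at the middle dose, 5 higher at the high dose as labelled and 3 lower in Pax5sz2, with medians of -0.21, -0.61, 0.58 and -0.27 and ranges of -1.35 to 1.45, -3.40 to 0.40, -0.11 to 5.14 and -4.08 to 0.25. The log2 of their summed level was 15.46 against 15.54 in the control, 13.42 against 15.55, 15.70 against 12.47 and 14.63 against 15.75. With the high-dose pair as labelled, the median of these markers changed side between the pairs as Slc2a6 and Txnip did. With the sign of that pair turned, neither the median nor these genes would change side. The part of these markers in the values of Slc2a6 and Txnip was not tested. Of the pro-B markers, 13, 13, 12 and 15 of 15 were well above background in the control RNA. They had 0, 0, 1 and 3 higher and 0, 0, 2 and 2 lower, with medians of -0.46, -0.30, -0.11 and -0.07. The surrogate light chain genes that define pro-B cells were at background in clone 4 on several arrays: for Igll1 neither RNA was well above background at the middle and high doses. The outermost of the list in Pax5sz2 were these genes and Dntt, the terminal transferase. Igll1 was at 5.65 ± 0.44 and Vpreb1 at 7.88 ± 0.94, and Dntt at -4.89 ± 0.32, whereas the widest ratio of a sugar metabolism gene was 1.76 (Aldoc). T cell markers had 0, 1, 1 and 0 of 9 past the size (Zap70), and erythroid markers 0 of 6 in each comparison.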

How the data were processed

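RNA from 4 comparisons was measured on 8 two-colour Agilent arrays of 43790 spots (2256 control). The deposited scanner output gives, per the file headers, each channel's mean intensity and median local background intensity, processed intensities after background subtraction and dye normalization, and a log10 ratio of Cy5 over Cy3, made by Agilent Feature Extraction (10.5.1.1 in the headers, no version in the submitters' processing notes). The deposited series matrix holds the same log10 values, turned to the named RNA, to within 5e-06. Probe coordinates are of mm8, per the file headers, and exons were not looked up, since no annotation of that build was used here.

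From the intensities, R 4.3.3 with limma 3.58.1 (files read with data.table, version 1.17.8) applied normexp (offset 50), loess within arrays with control spots at weight 0, and Aquantile for channel levels. Outlier spots (37 to 295 per array) were left out, and 0 spots were saturated. Spots of a probe were averaged, and a gene was its brightest probe that passed the well-above-background call for 1 RNA on both arrays of any comparison (29466 of 41174 probes, 20041 features). Features with a missing array were left out of the limma fits (19784 remained). RefSeq accessions matched 23374 probes. Figures used Python 3.11.15 with matplotlib 3.10.9. The size call and the limma fits were tested on simulated ratios with the same effect in every comparison, unlike the data as labelled. The steps before them were not tested in this way. Promoters came from RefSeq, and 33 of 35 genes matched.

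The labelled 1000 ng/ml direction was kept, since nothing in the labels gives another. The 2 arrays of a comparison were averaged to 1 sample, and p-values measure only the spread between these samples. The genes and lists were chosen with earlier results of these data known. All 35 genes could be named. From other lists only genes past the size were (at most 4 where over 6 passed), beside Pax5, Blnk and Fcer1g. Other probes were given where they differed in passing the size, and for Aldoa, Hk1, Ldha, Nr3c1, Pkm and Slc16a1 by choice. Probes that differed in sign were given in part, and some near 0, as for Pfkfb3 and Eno2, were left out. Igll1, Vpreb1 and Dntt, and the channel level comparison of the 1000 ng/ml pair, were chosen after values were seen. Alternatives were other background corrections, scalings, filters, probe rules, sizes and samples.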

Additional observations from a re-analysis of the deposited data

Results flagged for a closer look

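In these results the arrays of a gene all lay on opposite sides of the control in a pair of comparisons, with the gene past the size in at least 1 of them and its means at least 1.5-fold apart from the control in both. The differences between comparisons were not tested, and all involve the 1000 ng/ml pair as labelled, whose direction was not settled and which stands apart in batch as well as dose.

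For Slc2a6 the mean at 10 ng/ml (-0.90) less that at 1000 ng/ml (1.61) was -2.52, the mean at 300 ng/ml (-1.39) less that at 1000 ng/ml was -3, and the mean at 1000 ng/ml less that in Pax5sz2 (-1.36) was 2.97. For Txnip the mean at 300 ng/ml (-1.14) less that at 1000 ng/ml (1.57) was -2.70, and the mean at 1000 ng/ml less that in Pax5sz2 (-0.80) was 2.37. For Pfkp the mean at 300 ng/ml (0.63) less that at 1000 ng/ml (-1.10) was 1.73. With the sign of the 1000 ng/ml pair turned, its means would be -1.61, -1.57 and 1.10 for Slc2a6, Txnip and Pfkp, which follows from how these results were picked and says nothing about the direction.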

How the results depend on the processing

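No paired analysis was possible because the labels give no replicate numbers that link samples of different comparisons, and the 2 arrays of a comparison are technical dye swaps of 1 RNA. Each size count at 10, 300 and 1000 ng/ml and in Pax5sz2 was 1, 3, 3 and 2 genes. It became 0, 0, 1 and 1 with median centring in place of loess and 3, 6, 6 and 8 at 1.5-fold. Leaving out 1 array gave 1 to 3, 3 to 9, 3 to 4 and 2 to 5 genes, the higher counts at 10 and 300 ng/ml and in Pax5sz2 coming without array 2. The 9 at 300 ng/ml without replicate 2 held Hk1, Pfkm, Tpi1 and Eno1. The share of all features was not counted with median centring or with 1 array left out. The 3 genes at 1000 ng/ml changed side with the sign turned: Slc2a6 went to -1.61, Txnip to -1.57 and Pfkp to 1.10. The limma test of the mean doxycycline effect went from 0 genes to 5 without the 1000 ng/ml pair. An alternative chosen after seeing the data, without that pair and with 300 ng/ml from array 2 alone, gave 11 genes for doxycycline (smallest adjusted p = 0.00772), 9 for Pax5sz2 and 1 (Aldoc) for their difference. For Pax5sz2 the sign turned and the fit without the 1000 ng/ml pair each gave 1. All other limma alternatives gave 0 genes, with smallest adjusted p from 0.0819 to 1. They include leaving out array 1, or array 2, of every comparison at once (0 to 0 genes), which keeps only 1 dye orientation. Fits that leave out a single array were not run. Other scalings kept the sign of each gene past the size. With median centring Hk2 at 10 and 300 ng/ml (1.51 and 1.69), Slc2a6 at 300 ng/ml and in Pax5sz2 (-1.42 and -1.15) and Txnip at 1000 ng/ml (1.53) missed the size on an array, though their means stayed past 1. Txnip at 300 ng/ml missed the size with median centring, processed signals, series matrix ratios and the median of probes, and Pfkp at 1000 ng/ml with median centring and the median of probes. Processed signals put Pfkp past the size in Pax5sz2 and Ldhb at 300 ng/ml. The ratio of Aldoc ranged from 1.41 to 3.58, and that of Slc2a6 at 1000 ng/ml from 1.60 to 2.64 as labelled. The median over the 34 genes ranged from -0.04 to 0.17, 0.04 to 0.14, -0.14 to 0.03 and -0.07 to 0.34. The cause of these shifts was not tested. The number of arrays and the dim probes of Hk3, Eno2, Pdk2, Aldoc and Gapdh limit what could be seen.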
